A study of Mus musculus with 8 samples.

Results

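The receptors of retinoic acid (RA) were followed as the 6 genes Rara, Rarb and Rarg, which encode RARα, RARβ and RARγ, and Rxra, Rxrb and Rxrg, which encode RXRα, RXRβ and RXRγ. They were chosen by gene symbol, and all 6 were found among the 24421 genes of the deposited table. Bone marrow (BM) cells of C57BL6 mice were grown with GM-CSF (20 ng/ml) and TGF-β1 (10 ng/ml), a condition that gives cells like Langerhans cells (LCs), the langerin-bearing phagocytes of the epidermis. CD11c+ cells were then taken on magnetic beads, and their polyadenylated RNA was sequenced in 8 libraries. The Rara KO cells (2 libraries) came from mice in which CD11c-Cre removes a floxed exon of Rara, so that deletion occurs only in cells that have switched on the CD11c promoter. They were set against 2 wild type libraries, WT 1 and WT 2. The RA cells (2 libraries) were wild type cells grown with all-trans RA, at 1 nM by the labels, whereas the study's account of these RNA-seq samples names a higher dose, so that the dose is uncertain. They were set against the other 2 wild type libraries, which carry the name Control. The labels give 3 to 5 days of culture in medium with 10% serum, either regular or charcoal-treated, and the study's account of these samples names the shortest of these times and charcoal-treated serum, which is depleted of retinoids, for all groups. Age, sex, the presence of Cre in the wild type cells and the number of mice behind each library are details that no source used here gives. The study calls its samples independent without saying what sets them apart, and the p-values measure the spread between these libraries.

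RARs and RXRs are ligand-dependent transcription factors of the nuclear receptor family. A RAR binds DNA as a heterodimer with a RXR, at direct repeats of a short hexamer, the retinoic acid response elements. Without ligand the pair recruits corepressors and histone deacetylases, and binding of RA replaces these with coactivators. RXRs also pair with receptors for vitamin D, thyroid hormone, fatty acids and oxysterols, so the RXR pool is shared by several pathways. In blood cells RARα is the best known RAR, from its part in granulocyte differentiation and from the fusion proteins of promyelocytic leukaemia.

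Between 26325627 and 76077813 read pairs were assigned to genes in a library, and 12424 genes with at least 0.5 CPM (read counts scaled to library size) in at least 2 libraries were tested. Itgax, which encodes CD11c, was present in all 8 libraries at 504 to 1310 CPM. The summed level of 6 dendritic cell and LC markers was 19948 and 24193 CPM in Rara KO, against 30847 and 34307 CPM in WT 1 and WT 2, and 1936 and 2606 CPM in RA, against 24324 and 22508 CPM in Control. Cd74 and H2-Ab1, genes of antigen presentation, supply most of these sums. The LC markers differed by more: Cd207, which encodes langerin, was at 0.540 and 0.259 CPM in Rara KO, against 18.4 and 19.8 CPM in WT 1 and WT 2 (log2 fold change -5.62, adjusted p = 0.000268 in edgeR), and Epcam at 80.1 and 69.0 CPM in Rara KO, against 381 and 359.7 CPM in WT 1 and WT 2 (-2.31, adjusted p = 0.000895 in edgeR). Of the 6 markers, 4 were called lower in Rara KO (Flt3 and Cd74 were not called, at 0.42 and -0.55) and 6 with RA, where Cd207 was at -10.99 and Epcam at -6.24. Cd207 had 0.0401 and 0.0377 CPM in RA, against 70.6 and 97.7 CPM in Control. Each RA library had under 3 counts of it, so the size of that fall is uncertain. Monocyte and macrophage markers summed to 2014 to 2848 CPM, but single genes moved both ways. Of 7, Fcgr1, Cd14 and Ccr2 were called higher in Rara KO (log2 fold changes of 1.19, 0.88 and 1.49) and with RA (2.00, 1.19 and 2.54), Adgre1 and Csf1r were called lower in Rara KO (-0.59 and -1.08) and with RA (-0.89 and -0.75), and Mertk was called higher with RA (1.21). Erythroid, lymphocyte, mast cell and stromal markers summed to at most 7.65 CPM in any library. Of all tested genes, 21.6% differed between WT 1 and WT 2 on the one side and Control on the other at an adjusted p under 0.05 in edgeR, so each group was compared within its own experiment. In bulk RNA of this kind, fewer cells of a type and less RNA per cell cannot be told apart.

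Rarb is itself the classical target of RA, through a direct repeat spaced by 5 bases in its promoter, and its sequence is shown because it is the pattern that RAR and RXR dimers recognise. RefSeq promoter windows of the GRCm38.p6 build, each of 300 bases (250 before and 50 after a start), were found for 6 of 6 genes, as 13 windows. They were searched on both strands for the hexamer AGGTCA, or its variants AGTTCA as well as GGTTCA and also GGGTCA, followed by another of these 4 after 1, 2 or 5 bases. The window of Rarb held a match, on the strand of the gene, 53 to 37 bases before the RefSeq transcript start on which this window was set, a start that lies inside the longer span of the gene. The match is at chr14:16575507-16575535 on the minus strand with its flanks; the capitals mark the hexamers.
Rarb promoter: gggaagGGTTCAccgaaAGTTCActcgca
A repeat spaced by 5 bases was present in 0.0974% of 32851 windows of that length, and a repeat with any of the 3 spacings in 0.588%. None of the 4 windows of Rara or of the 2 windows each of Rarg, Rxra, Rxrb and Rxrg held a match, which says only that these letters are not in those windows.

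In untreated wild type cells the receptor set was made up of Rxra, Rara, Rxrb and Rarg. On a scale that corrects for exon length (RPKM, that is, CPM per kilobase of exon), the 4 wild type libraries had 49.6, 59.7, 71.4 and 73.2 RPKM of Rxra, in the order WT 1, WT 2, Control 1 and Control 2. Rara followed with 25.1, 30.8, 27.7 and 30.0 RPKM in the same libraries. Rxrb had 19.6, 21.5, 17.3 and 16.5 RPKM and Rarg 8.11, 9.06, 4.90 and 4.96 RPKM. The order Rxra, Rara, Rxrb, Rarg held in each of the 4 libraries, and no values of neighbouring genes overlapped. Rarb and Rxrg were at or near 0. The order was another one in RA, where Rxrb, at 21.5 and 20.4 RPKM, stood above Rara, at 11.5 and 11.9 RPKM. In Rara KO replicate 1 Rxrb also stood above Rara, at 20.4 against 15.0 RPKM, whereas in Rara KO replicate 2 they had 21.6 and 22.6 RPKM. Rxra remained the highest of the set in each of the 8 libraries, although in Rara KO replicate 2 it exceeded Rara by little, at 22.7 against 22.6 RPKM.

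**Figure D1:**
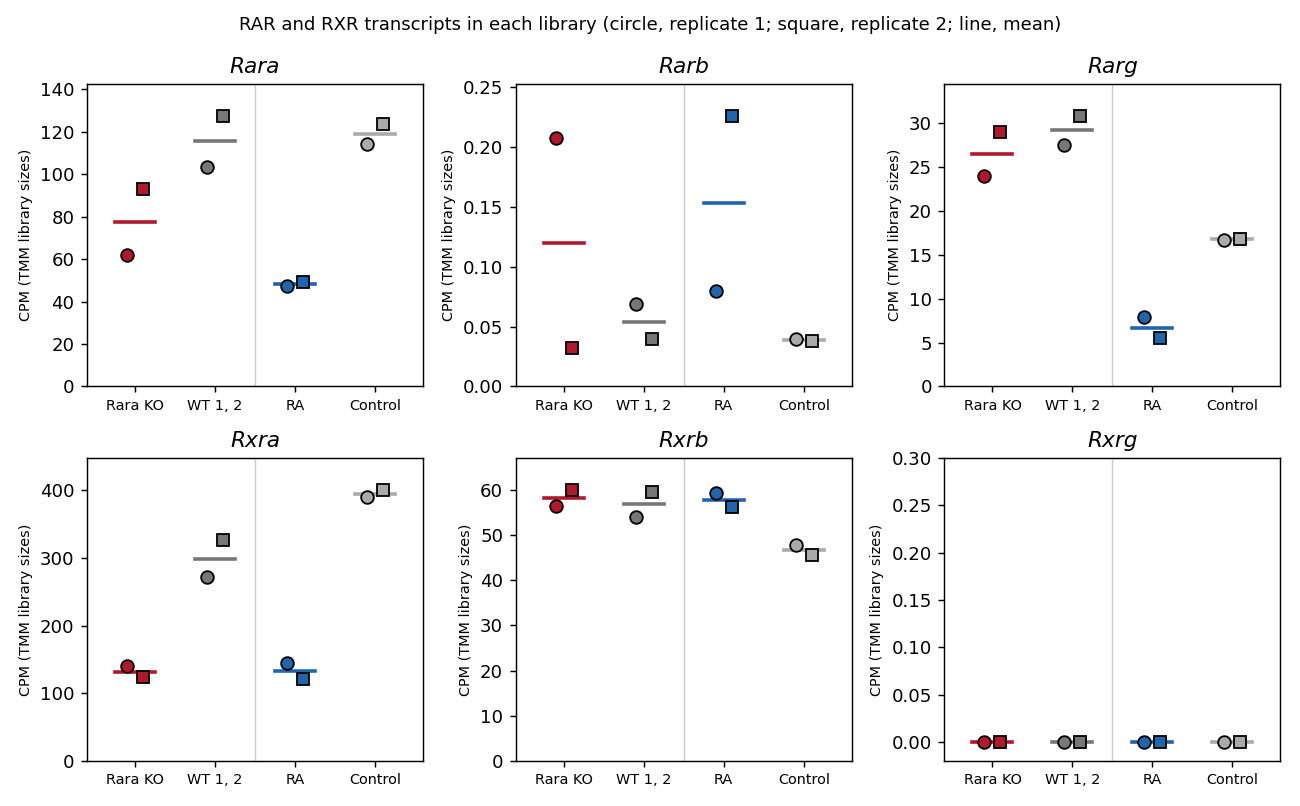
CPM on TMM library sizes (vertical axes, each panel with its own scale) of the 6 receptor genes in Rara KO, WT 1 and WT 2, RA and Control (horizontal axes); points are libraries and lines are means of 2. Rara, Rarg and Rxra of the RA libraries lie below Control, Rxra of the Rara KO libraries lies below WT 1 and WT 2, Rarb stays at or below 0.226 CPM and Rxrg is at 0 throughout.

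Rara, the targeted gene, had the highest transcript level of the RAR genes in these cells. It lies on chromosome 11 from 98937696 to 98974942 (mm10, plus strand). Rara KO had 62.1 and 93.2 CPM, against 104 and 127 CPM in WT 1 and WT 2. Both Rara KO libraries were below both wild type libraries of their experiment, and replicate 1 of each group was the lower. The log2 fold change was -0.57 (standard error 0.18), that is, 67.2% of the wild type level remained, with an adjusted p of 0.0521 in edgeR's quasi-likelihood test with Benjamini-Hochberg adjustment, just outside the threshold of 0.05. The call turned with the processing: without Rara KO replicate 2 the value was -0.94 (adjusted p = 0.0103 in edgeR) and without WT replicate 1 it was -0.77 (adjusted p = 0.043), whereas without Rara KO replicate 1 it was -0.36 (adjusted p = 0.136) and without WT replicate 2 -0.42 (adjusted p = 0.258). Over all alternatives the edgeR or DESeq2 adjusted p ran from 0.00477 to 0.258. The deleted exon, exon 3 of NM_009024.2 in the study's account, spans 149 bases (chromosome 11 from 98966347 to 98966495), 3.61% of the 4131 exon bases over which the counts were made. Counts of the whole gene thus cannot show its loss, and transcripts that lack it are still counted. The neutrophil marker sum was 2210 and 661 CPM in Rara KO and 1973 and 504 CPM in WT 1 and WT 2, high in the replicates in which Rara was low, and its part in the result was not tested.

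Rara fell with RA. RA cells had 47.3 and 49.1 CPM, against 114 and 124 CPM in Control, and the groups did not overlap. The log2 fold change was -1.31 (standard error 0.19, adjusted p = 0.0013 in edgeR), which corresponds to 40.5% of the Control level. This call was made under all 17 alternatives, with values of -1.36 to -1.24. Rara did not differ detectably between the untreated libraries of both experiments, at 115.5 ± 16.8 CPM in WT 1 and WT 2 and 119 ± 6.72 CPM in Control (SD, n = 2 each; adjusted p = 0.884 in edgeR).

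Rarg encodes RARγ, best known from epithelia such as the epidermis. It lies on chromosome 15 from 102234938 to 102257522 (mm10, minus strand). Rara KO had 23.9 and 29.0 CPM, against 27.6 and 30.8 CPM in WT 1 and WT 2, and these ranges overlapped. The log2 fold change of -0.14 (standard error 0.17, adjusted p = 0.577 in edgeR) did not pass. RA cells had 7.88 and 5.56 CPM, against 16.7 and 16.9 CPM in Control, and Rarg fell with RA to 40.1% of the Control level (log2 fold change -1.32 with a standard error of 0.18, adjusted p = 0.00108 in edgeR). The difference between both effects was itself tested, and it was -1.18 (standard error 0.25, adjusted p = 0.0363 in edgeR). That call was lost when any of 6 single libraries was left out (adjusted p up to 0.116 in edgeR), namely Rara KO replicate 2, WT replicate 1 or 2, RA replicate 2 or Control replicate 1 or 2, with values between -1.26 and -0.95. The wild type level of Rarg was not the same in both experiments. WT 1 and WT 2 averaged 29.2 ± 2.29 CPM and Control 16.8 ± 0.129 CPM (SD, n = 2 each), a log2 difference of 0.80 (standard error 0.17, adjusted p = 0.019 in edgeR), and with the 4 wild type libraries pooled the change in Rara KO was 0.20 instead of -0.14.

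Rarb, the RAR whose promoter holds the element shown above, was close to undetected. It lies on chromosome 14 from 16430840 to 17082331 (mm10, minus strand). Its raw counts were 5 and 1 in Rara KO, 3 and 3 in WT 1 and WT 2, 4 and 12 in RA and 2 and 2 in Control. All of these are at or below 0.226 CPM, under the minimum for testing, so no change was tested. As a description of the libraries, the summed rate in RA was 4.01 times that in Control (16 against 4 counts, exact 95% Poisson interval 1.29 to 16.5). Replicate 2 of RA supplied 12 of the 16 counts, and without it the ratio was 2.07 with an interval of 0.385 to 11.1. For Rara KO the ratio to WT 1 and WT 2 was 2.16 with an interval of 0.578 to 8.09 (6 against 6 counts). Such intervals cover counting error only, and without that library no difference was detectable at this depth.

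Rxra encodes RXRα, a partner of RARs and of many other receptors, and had the highest transcript level of the set. It lies on chromosome 2 from 27677201 to 27763319 (mm10, plus strand). Rara KO had 139.8 and 124 CPM, against 271 and 326 CPM in WT 1 and WT 2. All values of Rara KO were below those of its wild type libraries, by more than the spread within either group. Rxra fell to 44.2% of the wild type level in Rara KO (log2 fold change -1.18 with a standard error of 0.13, adjusted p = 0.00198 in edgeR). RA cells had 145 and 121 CPM, against 390.2 and 399.9 CPM in Control, a log2 fold change of -1.57 (standard error 0.13, adjusted p = 9.85e-05 in edgeR), or 33.7% of the Control level. Both calls were made under all 17 alternatives, and leaving out single libraries gave -1.36 to -1.04 in Rara KO and -1.71 to -1.44 with RA. The difference between both effects, -0.39 (standard error 0.18, adjusted p = 0.246 in edgeR), did not pass. RPKM levels in Rara KO (24.1 ± 2.04) and RA (24.4 ± 3.15) lay side by side although the wild type levels were 54.7 ± 7.09 in WT 1 and WT 2 and 72.3 ± 1.25 in Control (SD, n = 2 each), a gap between wild types that was not called (adjusted p = 0.0589 in edgeR).

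Rxrb encodes RXRβ, a widely expressed RXR, and lies within the major histocompatibility complex, on chromosome 17 from 34031812 to 34038403 (mm10, plus strand). Rara KO had 56.4 and 59.9 CPM, against 54.1 and 59.5 CPM in WT 1 and WT 2. These overlapped, and the log2 fold change was 0.03 (standard error 0.09, adjusted p = 0.81 in edgeR). RA cells had 59.4 and 56.3 CPM, against 47.8 and 45.7 CPM in Control. Among the tested members, Rxrb was the only one called higher with RA, with a log2 fold change of 0.31 and a standard error of 0.09 (adjusted p = 0.0339 in edgeR). This small change was not called without RA replicate 1 or 2 or without Control replicate 1 or 2 (0.27 to 0.35, adjusted p of 0.0658 to 0.189 in edgeR), nor against the 4 wild type libraries pooled (0.16, adjusted p = 0.375 in edgeR). RA cells and the cells of the knockout experiment had like levels of Rxrb, 57.9 ± 2.18 CPM in RA, 58.1 ± 2.49 CPM in Rara KO and 56.8 ± 3.81 CPM in WT 1 and WT 2, with Control the lowest at 46.8 ± 1.46 CPM (SD, n = 2 each).

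Rxrg encodes RXRγ, known from muscle and brain. It lies on chromosome 1 from 167598362 to 167639623 (mm10, plus strand), and no read pair was counted for it in any of the 8 libraries. With 3 counts as the floor, this allows a level of up to 0.04 to 0.125 CPM, depending on the depth of the library.

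Of the 4 members that passed the filter and could be tested, 1 was called in Rara KO cells, namely Rxra, where 26.9% of all tested genes were called and 13.3% were called lower. In RA cells, 4 of 4 were called, where 34.5% of all tested genes were called. Rara, Rarg and Rxra were lower, as were 19.3% of all genes, and Rxrb was higher, as were 15.2% of all genes. The median log2 fold change of the tested members was -0.36 in Rara KO and -1.31 with RA, beside 0.00 and -0.01 over all genes. The difference between both effects was called for 1 member, Rarg, which was lower, and for 6.09% of all tested genes (4.23% lower). Complete separation of 2 libraries from 2 was common in these data: 33.0% of genes were lower in both Rara KO libraries than in both wild type libraries of that experiment, while in both RA libraries 38.1% were lower and 36.8% higher than in both Control libraries. For Rara the difference of the effects was -0.73 (standard error 0.26, adjusted p = 0.137 in edgeR), and it was called without Rara KO replicate 1 (-0.94, adjusted p = 0.0357 in edgeR).

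**Figure D2:**
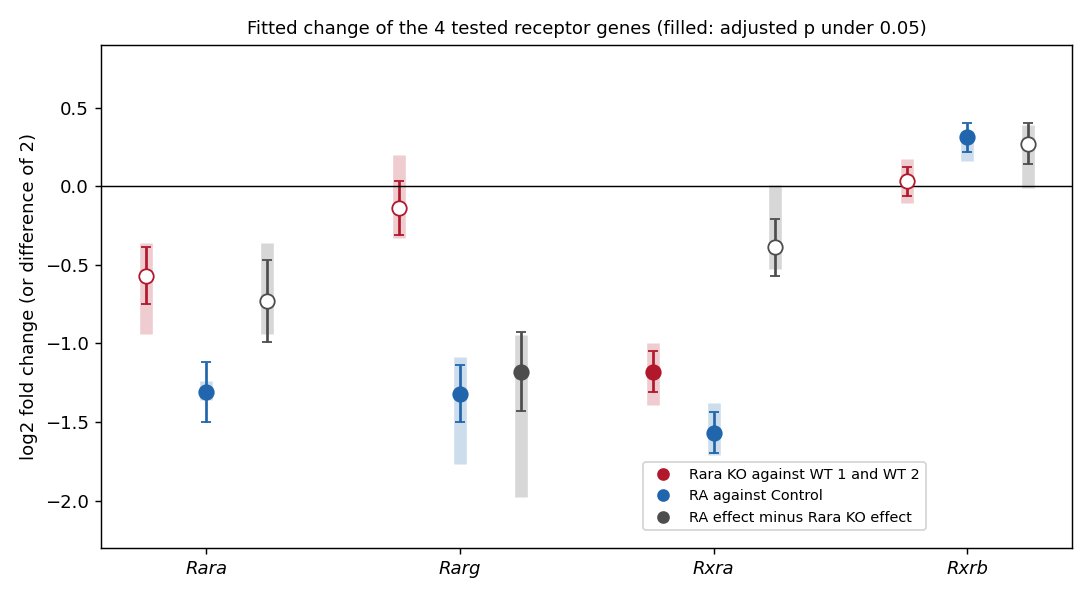
Fitted log2 fold change of Rara, Rarg, Rxra and Rxrb (vertical axis; error bars, standard error; filled points, adjusted p under 0.05 in edgeR) in Rara KO, with RA, and the difference of these effects; pale bars give the range over the alternatives. Rxra is called in both comparisons at -1.18 and -1.57, Rara and Rarg with RA at -1.31 and -1.32, and of the differences that for Rarg at -1.18; Rara in Rara KO, at -0.57, is open.

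Other quantities moved with the groups of the knockout experiment. The share of reads in 3' untranslated regions was 48.5 and 46.5% in Rara KO, against 39.0 and 35.8% in WT 1 and WT 2, while it was 34.0 and 32.0% in RA, against 32.1 and 30.8% in Control. Once a trend on exon length was removed, Rara in Rara KO was at -0.41 (adjusted p = 0.142 in edgeR) and the calls for Rxra remained. Xist, the RNA that coats the inactive X chromosome in female cells, had 1.08 and 0.259 CPM in Rara KO, against 91.1 and 253 CPM in WT 1 and WT 2, and at most 0.02 CPM in RA and Control. Ddx3y, a gene of the Y chromosome, was at 52.9 and 51.8 CPM in Rara KO, against 30.0 and 0 CPM in WT 1 and WT 2. WT 1 and WT 2 thus did not hold the same pool of cells. The sex of the donor cells therefore cannot be told apart from the genotype in this comparison. Eosinophil markers summed to 211 and 139 CPM in Rara KO, against 49.6 and 74.8 CPM in WT 1 and WT 2, and to 45.5 and 78.0 CPM in RA, against 18.8 and 29.2 CPM in Control. Of these 3 markers, Prg2 and Siglecf were called higher in Rara KO (log2 fold changes of 1.90 and 1.33; Epx 1.54, not called), and with RA the higher sum came from Siglecf alone (1.52), with Epx at -2.45 and Prg2 at -1.20, neither called. Neutrophil markers were at 147 and 179 CPM in RA, against 745 and 1024 CPM in Control. The part of these values, and of the dendritic cell and LC markers given above, in the receptor levels was not tested.

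The summed level per kilobase of each family was lower in both altered groups. RAR transcripts (Rara, Rarb and Rarg) amounted to 22.1 and 31.1 RPKM in Rara KO, against 33.2 and 39.9 RPKM in WT 1 and WT 2, and to 13.8 and 13.6 RPKM in RA, against 32.6 and 35.0 RPKM in Control. RXR transcripts amounted to 45.9 and 44.3 RPKM in Rara KO, against 69.2 and 81.2 RPKM in WT 1 and WT 2, and to 48.1 and 42.5 RPKM in RA, against 88.6 and 89.7 RPKM in Control. Both sums were thus lower in Rara KO and in RA than in every wild type library of the same experiment. Of single genes, 33.0% were likewise lower in both Rara KO libraries, and 38.1% in both RA libraries. The RAR sums of Rara KO replicate 2 and WT 1 lay close, at 31.1 and 33.2 RPKM. Rara, which supplies most of these sums, was not called in Rara KO. RXR transcripts were present in excess over RAR transcripts in every library. The excess was 2.08 and 1.43 times in Rara KO, against 2.08 and 2.03 times in WT 1 and WT 2, and 3.48 and 3.13 times in RA, against 2.72 and 2.56 times in Control, so that it was higher in both RA libraries than in Control and overlapped in the knockout experiment. In Rara KO, the RAR sums and the ratios still include transcripts that lack the deleted exon, and cannot show how much intact Rara remained. These sums and ratios are descriptions with 2 libraries per group, where an exact two-sided permutation test cannot give a p below 0.333.

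The makeup of the RXR transcripts shifted in both comparisons, whereas that of the RAR transcripts shifted in Rara KO only, and by less. Rara made up 67.9 and 72.5% of RAR transcripts in Rara KO, against 75.5 and 77.3% in WT 1 and WT 2, and 83 and 87.5% in RA, against 84.9 and 85.8% in Control. The share in RA was thus not apart from Control, as Rara and Rarg were lower by like folds. In Rara KO the share of Rara includes transcripts that lack the deleted exon. Rxra made up 55.7 and 51.2% of RXR transcripts in Rara KO, against 71.7 and 73.5% in WT 1 and WT 2, and 55.3 and 52.1% in RA, against 80.5 and 81.6% in Control. In both altered groups the RXR transcripts were thus close to an even mixture of Rxra and Rxrb, whereas Rxra dominated in every wild type library. These are shares of RNA, and receptor protein was not measured in these libraries.

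**Figure D3:**
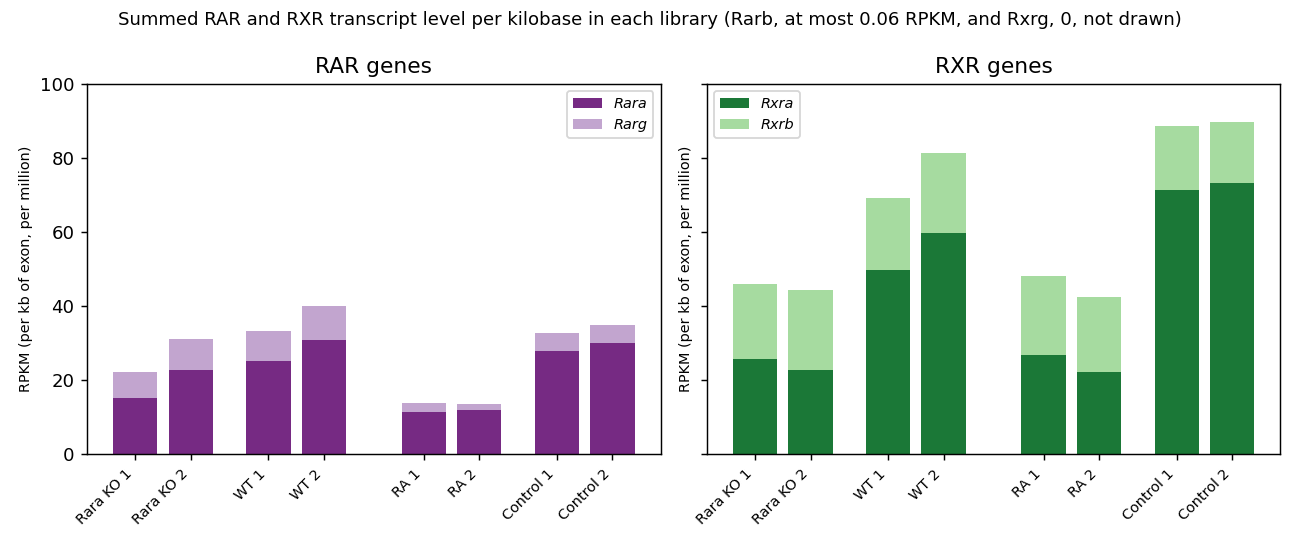
Stacked RPKM of the RAR genes (left) and RXR genes (right) in each of the 8 libraries (horizontal axis); colours mark the genes, and Rarb and Rxrg are too low to draw. RAR sums reach 13.6 to 13.8 RPKM in RA and at least 32.6 RPKM in the wild type libraries, and RXR sums reach 42.5 to 48.1 RPKM in Rara KO and RA and at least 69.2 RPKM in the wild type libraries.

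Across the 8 libraries, log2 CPM of Rara correlated with that of Rxra at r = 0.83 and with that of Rarg at r = 0.73, Rarg with Rxra at r = 0.36, and Rxrb with Rxra at r = -0.72. The libraries share their treatments and experiments, so these values describe the 4 groups and carry no test. Among 9962 genes with a mean of at least 5 CPM, the profiles most like Rara were those of Sft2d2 and Capn2 (r = 0.992) and of Slc46a3, Entpd1 and Cant1 (r = 0.990). Capn2 encodes a subunit of the calcium-dependent protease calpain, and Entpd1 encodes CD39, an enzyme that splits extracellular ATP. For Rarg they were 1110032A03Rik (r = 0.996), Cirbp (r = 0.995), a cold-inducible RNA-binding protein, and 2010111I01Rik (r = 0.990). For Rxra they were Gramd4 (r = 0.995), Lmna (r = 0.990), which encodes lamin A and C of the nuclear envelope, and Ctnna1 (r = 0.989), which encodes α-catenin. Rxrb had weaker matches, Ankrd63 and Ech1 (r = 0.974) and Klhl22 (r = 0.971). With any library left out, the lowest of these values was r = 0.954, for Ech1. High values were common among the 9962 genes. An r above 0.95 was reached by 136 genes with Rara, 130 with Rarg, 121 with Rxra and 10 with Rxrb, so the named genes are only the top of longer lists.

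The receptors with which RXR also pairs were represented by 13 genes, of which 9 were tested. In Rara KO cells, 1 gene was called higher and 2 lower, with a median log2 fold change of -0.21, where 13.6% of all tested genes were called higher and 13.3% lower. In RA cells, 1 gene was also called higher and 2 lower, with a median of 0.03, where 15.2% of all genes were called higher and 19.3% lower. With 9 genes, counts of this size lie near those shares. Pparg encodes the fatty acid receptor PPARγ and was at 64.1 and 54.4 CPM in Rara KO, against 35.9 and 41.1 CPM in WT 1 and WT 2, and at 172 and 131.5 CPM in RA, against 24.2 and 28.7 CPM in Control. It rose in both comparisons, with log2 fold changes of 0.62 ± 0.16 in Rara KO (SE, adjusted p = 0.0253 in edgeR) and 2.52 ± 0.17 under RA (SE, adjusted p = 3.52e-05 in edgeR), and the difference of 1.90 was called (adjusted p = 0.00537 in edgeR). The smaller change was not called without Rara KO replicate 1 (0.44) or either wild type library of its experiment (0.48 and 0.72), or with library totals for scaling (0.48). Vdr, the vitamin D receptor, was at 49.0 and 33.6 CPM in Rara KO, against 65.2 and 62.5 CPM in WT 1 and WT 2, and at 52.5 and 67.5 CPM in RA, against 107 and 109 CPM in Control. Its log2 fold changes were -0.63 (adjusted p = 0.0364 in edgeR) in Rara KO and -0.85 (adjusted p = 0.00839 in edgeR) with RA. The call in Rara KO was lost under 7 alternatives (values of -0.66 to -0.43), among them the removal of the trend on exon length, and that with RA without RA replicate 1 (-0.68) and against pooled wild types (-0.52). WT 1 and WT 2 differed from Control for Vdr (-0.76, adjusted p = 0.0239 in edgeR) and Pparg (0.54, adjusted p = 0.0459 in edgeR). Both thyroid hormone receptors were low. Thra was called in Rara KO, with 2.25 and 3.47 CPM against 5.14 and 7.81 CPM in WT 1 and WT 2 (log2 fold change -1.18, adjusted p = 0.0206 in edgeR), but not without Rara KO replicate 1 (-0.96), without WT replicate 2 (-0.84) or in a fit of that experiment alone (-1.19). Thrb was called with RA, with 0.140 and 0.113 CPM against 0.395 and 0.494 CPM in Control (-1.79, adjusted p = 0.0196 in edgeR), but not once any RA or Control library was left out or in DESeq2 (-1.95 to -1.62).

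Receptors that compete for the same repeats were represented by 5 genes, of which 3 were tested. Of these, 1 was called higher in Rara KO, where 13.6% of all tested genes were. Nr2f6, an orphan receptor of the COUP-TF family, was that gene, with 24.6 and 21.9 CPM against 13.6 and 16.5 CPM in WT 1 and WT 2 (log2 fold change 0.62, adjusted p = 0.019 in edgeR), and it was not called without Rara KO replicate 1 (0.49) or WT replicate 1 (0.44). The testicular receptors Nr2c1 and Nr2c2 were at 0.21 and 0.02 in Rara KO (adjusted p = 0.306 and 0.893 in edgeR). In RA cells Nr2f6, Nr2c1 and Nr2c2 were at 0.30, 0.30 and 0.11 (adjusted p of 0.131 to 0.393 in edgeR). The median log2 fold change of the 3 was 0.21 in Rara KO and 0.30 with RA.

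The supply of the ligand was covered by 17 genes for retinoid uptake, oxidation, breakdown and binding, of which 7 were tested. In Rara KO cells, 1 gene was called higher and 2 lower (median 0.19), beside 13.6% and 13.3% of all tested genes. In RA cells, 2 genes were called higher, Dhrs3 and the retinol dehydrogenase gene Rdh11, and 2 lower (median 0.32), beside 15.2% and 19.3% of all tested genes. Dhrs3 encodes a reductase that turns retinaldehyde back into retinol. It was at 91.1 and 100.0 CPM in Rara KO, against 38.8 and 44.2 CPM in WT 1 and WT 2, and at 120.2 and 80.0 CPM in RA, against 7.21 and 9.87 CPM in Control. It rose in both, with log2 fold changes of 1.20 ± 0.21 in Rara KO (SE, adjusted p = 0.00647 in edgeR) and 3.55 ± 0.23 under RA (SE, adjusted p = 3.14e-05 in edgeR). Its wild type level differed between the experiments by 2.28 on the log2 scale (adjusted p = 0.00295 in edgeR), and against pooled wild types the change with RA was 2.00 (adjusted p = 0.0502 in edgeR). Dhrs9, a dehydrogenase that acts on retinol, was at 1.99 and 4.02 CPM in Rara KO, against 11.4 and 16.6 CPM in WT 1 and WT 2, and at 1.58 and 2.94 CPM in RA, against 40.1 and 28.9 CPM in Control. It fell in both, with log2 fold changes of -2.20 (adjusted p = 0.00712 in edgeR) and -3.93 (adjusted p = 0.000273 in edgeR). Cyp26b1, a cytochrome P450 that breaks down RA, was at 0 and 0.130 CPM in Rara KO, against 0.457 and 0.733 CPM in WT 1 and WT 2, and at 0.0401 and 0.0754 CPM in RA, against 3.10 and 2.97 CPM in Control. Its log2 fold change was -3.03 ± 0.76 in Rara KO (SE, adjusted p = 0.0232 in edgeR) and -5.64 ± 0.65 under RA (SE, adjusted p = 0.000461 in edgeR). WT 1 and WT 2 also differed from Control for Dhrs9 (-1.30, adjusted p = 0.0368 in edgeR) and Cyp26b1 (-2.32, adjusted p = 0.0172 in edgeR). In RA, Cyp26b1 lay near the floor of 3 counts, which is 0.0601 and 0.0565 CPM in RA 1 and RA 2. The size of its fall with RA is therefore uncertain. The value of Cyp26b1 in Rara KO rests on few counts. It was not called without Rara KO replicate 1 (-2.26), without WT replicate 2 (-2.63) or in a fit of that experiment alone (-3.05), and it was -7.94 without Rara KO replicate 2, where the remaining library had a count of 0. The cellular retinoic acid binding genes Crabp1 and Crabp2 were at or below 0.208 CPM in every library. Fabp5, another gene of this list, was at 348.9 to 704.2 CPM. It was not called in Rara KO (0.25, adjusted p = 0.473 in edgeR) or with RA (0.40, adjusted p = 0.229 in edgeR).

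Genes known as direct targets of RARs were represented by 10 genes, of which 4 were tested. In each comparison Dhrs3 was called higher and Cyp26b1 lower, and the other 2, Tgm2 and Cebpe, were not called, so that 2 of 4 were called in each, where 26.9% of all tested genes were called in Rara KO and 34.5% with RA. The median log2 fold change of the 4 was 0.57 in Rara KO and 0.72 with RA. Rarb, the target with the element shown above, had too few counts for a test.

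Coregulators through which the receptors act were represented by 12 genes, all of them tested. In Rara KO cells, 1 gene was called higher, the histone deacetylase gene Hdac3, and 5 were called lower (median -0.31), namely Tbl1x, Gps2, Ncoa3, Crebbp and Nrip1. In RA cells, 5 were also called lower (median -0.28), namely Ncor1, Ncoa2, Ncoa3, Crebbp and Ep300. These shares stand beside the 13.6% of all genes called higher and the 13.3% called lower in Rara KO, and the 19.3% called lower with RA. Tbl1x, a subunit of the corepressor complex, was at 3.78 and 3.92 CPM in Rara KO, against 9.21 and 14.1 CPM in WT 1 and WT 2, and fell by 1.60 (standard error 0.25, adjusted p = 0.00492 in edgeR). Tbl1x is a gene of the X chromosome. With RA it was at 20.9 and 28.9 CPM, against 27.4 and 33.4 CPM in Control (-0.28, adjusted p = 0.362 in edgeR). Its level in WT 1 and WT 2 differed from Control by -1.38 on the log2 scale (adjusted p = 0.00995 in edgeR). The coactivator Crebbp, a histone acetyltransferase, was at 6.24 and 7.16 CPM in Rara KO, against 15.3 and 19.2 CPM in WT 1 and WT 2, and fell by 1.36 (standard error 0.17, adjusted p = 0.00256 in edgeR). With RA the coactivators Ncoa3, Ncoa2 and Ep300 were lowest in p. Ncoa3 fell by 0.84 (95.1 and 97.3 CPM in RA, against 166 and 179 CPM in Control; adjusted p = 0.000944 in edgeR), Ncoa2 by 0.62 (44.7 and 47.3 CPM in RA, against 67.8 and 73.6 CPM in Control; adjusted p = 0.008 in edgeR) and Ep300 by 0.41 (76.7 and 81.0 CPM in RA, against 103.9 and 105 CPM in Control; adjusted p = 0.0186 in edgeR). Ep300 was not called without RA replicate 1 (-0.37), without Control replicate 1 or 2 (-0.41 and -0.40), with the trend on exon length removed (-0.18) or against pooled wild types (-0.14). Ncoa2 was not called without RA replicate 1 (-0.58), without Control replicate 2 (-0.56) or against pooled wild types (-0.34). Nrip1, a corepressor that binds receptors carrying ligand, was at 1.58 and 1.88 CPM in Rara KO, against 3.82 and 7.98 CPM in WT 1 and WT 2, and at 23.9 and 34.2 CPM in RA, against 15.6 and 20.0 CPM in Control, and fell by 1.78 in Rara KO (standard error 0.38, adjusted p = 0.0135 in edgeR), a call that was lost without Rara KO replicate 1 (-1.72) or WT replicate 2 (-1.13). The difference of its effects, looked at after its values were seen, was 2.48 (standard error 0.50, adjusted p = 0.0307 in edgeR). WT 1 and WT 2 also differed from Control for Nrip1 (-1.58), Ncoa2 (-0.62), Ep300 (-0.59) and Ncoa3 (-0.51), at adjusted p of 0.0107 to 0.0199 in edgeR. That gap was not called for Crebbp (-0.41, adjusted p = 0.105 in edgeR).

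**Figure D4:**
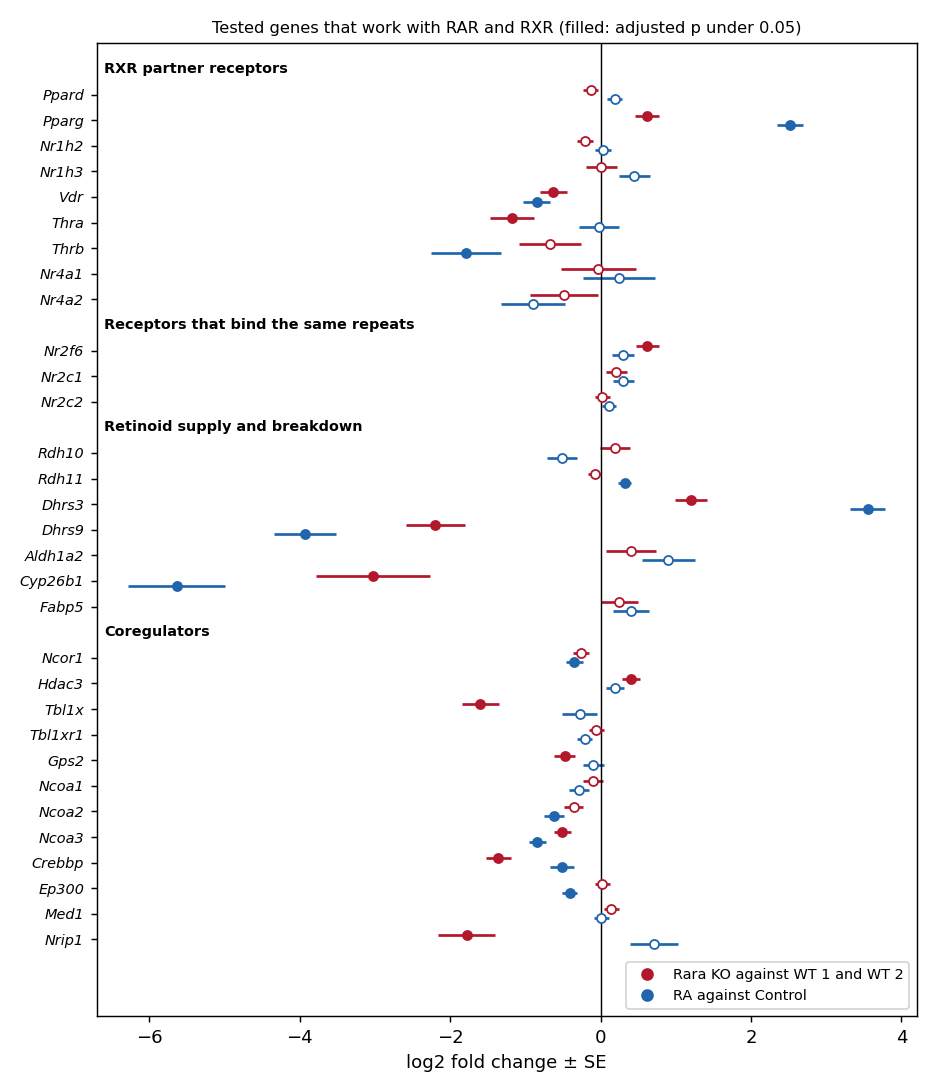
Log2 fold change with standard error (horizontal axis) of the tested genes that pair with RXR, bind the same repeats, handle retinoids or act as coregulators (vertical axis), in Rara KO and with RA; filled points have an adjusted p under 0.05 in edgeR. Dhrs3 and Pparg lie to the right in both comparisons (1.20 and 3.55, 0.62 and 2.52), Dhrs9 and Cyp26b1 to the left, and of the coregulators 5 were called lower in Rara KO and 5 with RA.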

How the data were processed

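Per the labels and the study's methods, STAR was used by the authors to map read pairs to mm10, and they assigned unique pairs to RefSeq genes by strand with featureCounts (no source used here gives versions). The deposited values used here are raw counts per gene and the exon length per gene, with the authors' mapping summary for read shares. Deposited fold changes, p-values and RPKM were not used. In R 4.3.3, edgeR 4.0.16 (TMM, quasi-likelihood fit and F test) was run on all 8 libraries with 4 levels (Rara KO, WT 1 and WT 2, RA, Control), leaving 4 residual degrees of freedom. Tested genes had 0.5 CPM or more in 2 or more libraries, and p-values were adjusted by Benjamini-Hochberg, with a threshold of 0.05. Standard errors are the absolute log2 fold change over the root of the F statistic. RPKM was computed from counts, exon length and TMM sizes. Column names do not say which Control library is WT 3 or WT 4. The code was tested on simulated data. The 6 genes and all lists were chosen with earlier results of these data known, and some genes of these lists are not reported here. From each list, up to 3 called genes per comparison with the smallest p were followed through the alternatives. Other list genes are named, called or not, without that check. Profile likeness is Pearson's r of log2 CPM (prior count 2), with 5 genes given for Rara and 3 for each other member. The 17 alternatives were RLE, upper-quartile and total scaling, no filter, pooled wild types, each experiment alone, a replicate block, removal of a trend on exon length (spline with 4 degrees of freedom), DESeq2 1.42.0 and each library left out.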

Additional observations from a re-analysis of the deposited data

Results flagged for a closer look

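Rarb in WT replicate 1 stood apart from the other 3 wild type libraries by Dixon's ratio of gap to range, at 0.0686 CPM, which rests on 3 counts. WT replicate 2, a deeper library, had the same 3 counts. Chance takes a value past the 95% limit used here in about 1 in 20 groups.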

How the results depend on the processing

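Rara, Rarg and Rxra with RA, and Rxra in Rara KO, were called under all 17 alternatives. Rara in Rara KO was called under RLE (-0.58), upper-quartile (-0.61) and total scaling (-0.72), without the filter (-0.59), against pooled wild types (-0.60), with a replicate block (-0.59) and in DESeq2 (-0.58), and ranged from -0.94 to -0.36 when a library was left out. The number of members called in Rara KO was 2 under each of these settings and 1 to 2 when a library was left out. The cause was not tested. The difference of the effects was called for 2 members with pooled wild types (Rara -0.69) and with the replicate block (Rara -0.71). When a library was left out, 0 to 2 members were called, Rara ranged from -0.94 to -0.36 and Rarg from -1.45 to -0.95. Rxrb with RA was 0.16 against pooled wild types and 0.27 to 0.35 when a library was left out. Uncalled values changed sign for Rarg in Rara KO (0.20, pooled wild types), for Rxrb in Rara KO (-0.11 with total scaling, -0.06 without Rara KO replicate 2, -0.08 without WT replicate 1, and -0.08 to 0.10 over the fits that leave out a library), and, with pooled wild types, for the differences of Rxra (0.01) and Rxrb (-0.01). Pooling sets both effects against the same 4 libraries by construction.

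Over all genes, 3346 were called in Rara KO (1688 higher, 1658 lower), against 2177 in a fit of that experiment alone and 971 to 3170 when a library was left out. Total scaling gave 979 higher and 2770 lower in Rara KO and moved the median of all genes to -0.14, so fold changes there are lower by about that shift. In RA cells, 4291 were called, and 2180 to 4683 when a library was left out. The difference of the effects was called for 757 genes (231 higher, 526 lower), 438 higher and 417 lower with total scaling, 3588 with pooled wild types, 1165 with the block, 1464 in DESeq2 and 198 to 644 when a library was left out. The block used the replicate numbers shared by Rara KO and WT. Across the tested genes, log2 CPM of replicate 1 minus replicate 2 in Rara KO correlated with that of WT 1 minus WT 2 at r = 0.28. No source says that a number marks a shared mouse or day. A library left out can leave a group with 1 library, which is then taken to vary like the others. Depth limits Rarb and Rxrg, and counts near 0.5 CPM such as those of Thrb and Cyp26b1 carry the largest counting error.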
